A study of Mus musculus with 6 samples.

Results

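Macrophages and dendritic cells are myeloid cells that take up debris, sense damage and present antigen, and both are a regular part of the mammary gland and its tumors. They bind antibody-coated particles through Fc receptors and lipids and glycans through C-type lectins and scavenger receptors, and many of these receptors signal through the adaptors Tyrobp and Fcer1g. Their development depends on transcription factors such as Spi1 (PU.1), Irf8 and Batf3. Liver X receptors (LXR), nuclear receptors for oxysterols, control cholesterol export in macrophages.

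In mammary tumor RNAseq, 43 macrophage and dendritic cell genes were found by gene symbol, 43 of 43 sought, among 55385 genes, and all 43 passed the filter on low counts. Tumors were from female NeuT/ATTAC mice, which carry a constitutively active rat ErbB2 driven by MMTV and an FKBPv-caspase-8 fusion driven by the FABP4 promoter, which is known to be active in fat cells and also in macrophages. AP20187 (0.4 mg/kg, from 6 weeks of age) dimerizes the fusion protein and activates the caspase. The treated group also received DMHCA, a steroidal LXR agonist, as 0.05% of the diet (about 100 mg/kg) from 8 weeks of age. The study describes the tumors as from AP20187-treated mice in both groups, and this is followed here, so that the groups differ in DMHCA, although the label of the controls, which names AP20187 and vehicle, could also be read as vehicle alone. Each group has 3 libraries, of 46358654 to 63420620 reads. DMHCA libraries 1 and 3 were nearly identical, with a biological coefficient of variation of 0.0327 where the other 5 pairs within a group had 0.376 to 0.579, so their counts were summed and they are 1 sample, called DMHCA 1+3. The comparison is therefore of 3 control samples with 2 DMHCA samples. The study's text describes the tumors of each group as coming from separate mice, while the labels do not tie libraries to animals, and p-values measure only the spread between these samples.

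The genes lie on 15 chromosomes, and some are neighbors. Fcgr2b, Fcgr4, Fcgr3 and Fcer1g are within 275.7 kb of chromosome 1 (170958617 to 171234365, GRCm38), the lectin genes Clec4n, Clec4d and Clec4e within 60.0 kb of chromosome 6 (123229843 to 123289870), Itgam and Itgax within 88.0 kb of chromosome 7 and the lysozyme genes Lyz2 and Lyz1 within 15.5 kb of chromosome 10. Reads of similar genes had to be divided between them. Of the 100-base windows of their transcripts, 64.3% of those of Itgam are shared with the overlapping gene Gm49368, 5.81% of Ly6c2 with Ly6c1, 3.05% of Itgax with Itgad, 2.64% of Clec10a with Mgl2, 2.54% of Fcgr3 with Fcgr2b and 2.06% of Lyz1 with Lyz2. The values of Itgam are therefore uncertain. Irf5, Ncf1, Fcgr2b and Folr2 have exons that overlap genes of the opposite strand, and whether reads were counted by strand is not given in the sources used here.

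The promoters of 5 genes are shown because they hold the core of the site bound by PU.1 and other ETS factors. Clec4d, Itgax, Fcgr4 and Lyz2 are among the genes whose control and DMHCA samples did not overlap in normalized counts (counts scaled by library size), and Lyz1 is the neighbor and close relative of Lyz2. The sequences are from RefSeq (GRCm38.p6), 110 bases each, 5′ to 3′ on the strand of the gene. They end at the base before the RefSeq start in Clec4d, and 3 bases earlier in Itgax, 6 in Fcgr4 and 49 in Lyz2, where the annotated gene begins ahead of that start, and Lyz1 was cut like Lyz2. Capitals mark GGAAGT or its reverse complement, which lies 30 to 35 bases before the RefSeq start in Clec4d, 36 to 41 in Itgax, 19 to 24 in Fcgr4 and 95 to 100 in Lyz1 and Lyz2.
Clec4d (chr6:123261997-123262106, plus strand): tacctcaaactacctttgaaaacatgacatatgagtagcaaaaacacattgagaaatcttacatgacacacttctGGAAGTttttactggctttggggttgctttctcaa
Itgax (chr7:128129437-128129546, plus strand): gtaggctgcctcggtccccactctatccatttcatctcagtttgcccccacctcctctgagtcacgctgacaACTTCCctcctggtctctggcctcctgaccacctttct
Fcgr4 (chr1:171018810-171018919, plus strand): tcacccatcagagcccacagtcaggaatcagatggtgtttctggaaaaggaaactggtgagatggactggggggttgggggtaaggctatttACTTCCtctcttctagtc
Lyz1 (chr10:117292918-117293027, minus strand): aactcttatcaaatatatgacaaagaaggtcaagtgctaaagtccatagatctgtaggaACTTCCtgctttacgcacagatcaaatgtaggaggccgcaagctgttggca
Lyz2 (chr10:117282322-117282431, minus strand): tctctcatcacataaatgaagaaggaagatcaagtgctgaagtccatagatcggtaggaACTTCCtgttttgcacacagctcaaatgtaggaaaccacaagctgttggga

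Promoters were available for 33 of the 43 genes. In the 250 bases before the start, 15 of the 33 (45.5%) held GGAAGT on either strand, where 22.2% of all 27025 genes with a promoter did. The longer form GAGGAAGT, which contains GGAAGT, was in Fcgr4 and Ly6c2 (6.06%, against 2.79% of all genes). The letters GAAA repeated after a gap of 2 bases, a pattern read by interferon regulatory factors, were in Aif1, Cybb, Fcgr4 and Ncf1 (12.1%, against 3.46% of all genes). The LXR-type repeat of AGGTCA with a gap of 4 bases was in 0 of the 33 and in 0.0148% of all genes. GGAAGT was in 8 of the 14 genes whose groups did not overlap in normalized counts and in 7 of the 19 others. The Lyz1 and Lyz2 sequences above carry it at the same position, and 80 of their 110 bases (72.7%) are identical when aligned without gaps. A match of letters is a description of the sequence and not a site of binding.

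By level per length, in TPM (transcripts scaled for gene length and library size), Lyz2 came first with a mean of 607.0 TPM over the 5 samples. Tyrobp followed with 148.0 TPM, the pore-forming protein gene Mpeg1 with 64.0 TPM and Fcer1g with 61.7 TPM. The lowest by this mean were the dendritic cell genes Zbtb46 (1.58 TPM) and Flt3 (0.662 TPM) and the lectin gene Clec4e (0.466 TPM). Flt3 had 2.47 TPM in control 3 and 0.4 TPM or less in every other library. Macrophage markers outside the 43 genes were well detected, with 315.5 TPM for the complement gene C1qa and 27.0 TPM for Csf1r, the receptor for macrophage colony-stimulating factor. Xcr1 (0.387 TPM) and Clec9a (0.442 TPM), markers of cross-presenting dendritic cells, were scarce. Ccr7 (6.61 TPM) and Fscn1 (15.1 TPM), genes of migratory dendritic cells, had higher means. The mean of Ccr7 came mostly from control 3 (29.06 TPM), with 2.77 TPM or less in every other library. All these genes are named after their values were seen.

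The 43 genes summed to 1379.2, 1051.2 and 2826.9 TPM in controls 1, 2 and 3 and to 1179.1 and 989.4 TPM in DMHCA 1+3 and DMHCA 2. Control 3 stood apart. It had the highest normalized count of 37 of the 43 genes, and DMHCA 2 had the lowest of 24. Control 3 also had the most RNA of several other cell types. Its 6 pan-leukocyte markers summed to 917.5 TPM, against 109.0 and 209.2 in the other controls and 100.0 and 120.6 with DMHCA. Its 6 B cell markers summed to 303.7 TPM (1.1 and 36.0 in the other controls, 2.1 and 2.2 with DMHCA) and its 6 T cell markers to 171.8 TPM (1.6 and 17.9, and 4.3 and 8.0). The 5 adipocyte markers summed to 913.6 TPM in control 3, to 123.1 and 202.6 in the other controls and to 68.7 and 68.8 with DMHCA. Fabp4 carried most of each sum. It had 780 TPM in control 3, 113 and 168 TPM in controls 2 and 1, and 66.9, 65.5 and 67.5 TPM in DMHCA libraries 1, 2 and 3. None of these markers was at 0 in every library, and their part in the results was not tested. In bulk tumor RNA, fewer cells of a type and less RNA per cell cannot be told apart.

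**Figure D1:**
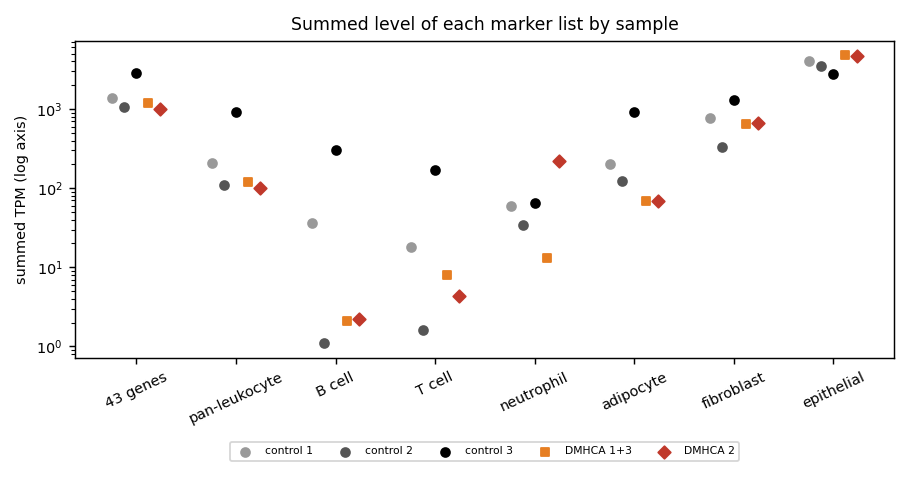
Summed TPM (log axis) of each marker list, 1 point per sample, with the list on the x axis. Control 3 is the highest sample for the 43 genes (2826.9 TPM) and for the pan-leukocyte, B cell, T cell, adipocyte and fibroblast lists, and DMHCA 2 is the highest for the neutrophil list (217.9 TPM, of which S100a8 is 198.6 TPM). Fabp4 is 780 TPM of the adipocyte sum in control 3.

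With DMHCA, the log2 fold change (log2FC, DMHCA over control) was below 0 for 36 of the 43 genes (83.7%) and above 0 for 7, where 52% of the 19427 genes tested lay below 0. Its median was -0.75 over the 43 genes and -0.03 over all genes tested. By edgeR's quasi-likelihood test, 0 of the 43 genes had an adjusted p under 0.05 (0% of all genes were called in either direction), and the smallest adjusted p among the 43 was 0.644. Before adjustment, 7 of the 43 had a p under 0.05 and a lower value with DMHCA (16.3%, against 4.08% of all genes), namely Ly86, Tyrobp, Clec4d, Itgax, Aif1, Cd83 and Cd209a, and 0 had one with a higher value (3.53% of all genes). All controls lay above both DMHCA samples for 16 genes (37.2%, against 12.2% of all genes), and below both for 0 genes (13.8% of all genes). This is in normalized counts, as is every statement on overlap unless TPM is named. In TPM, 11 genes were lower without overlap (25.6%, against 6.97% of all genes) and 0 higher (20.3% of all genes). Of the 16, Fcgr2b, Lyz2, Ncf1, Itgam, Batf3 and Irf5 overlapped in TPM, and Cd83 did not overlap in TPM only. A log2FC of -1 or less was found for 15 genes (34.9%, against 13.2% of all genes).

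DESeq2 on the same 5 samples called 0 of the 43 genes, where it called 0.957% of all genes lower and 0.247% higher, and gave 12 an unadjusted p under 0.05 and a lower value (4.35% of all genes). With the 6 libraries as separate samples DESeq2 called 1 gene lower (2.95% of all genes), Clec4d, with an adjusted p of 0.0475, and gave 19 an unadjusted p under 0.05 (6.21% of all genes). That fit counts DMHCA 1 and DMHCA 3 as independent.

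Without control 3, 1 gene instead of 7 had an unadjusted p under 0.05 and a lower value (3.27% of all genes), and the median log2FC was -0.42. Lower without overlap were 18 genes (16.7% of all genes), which include the 16 by construction, and 7 genes were now higher without overlap (18.1% of all genes). Without control 2, 11 genes had such a p (6.48% of all genes) and 26 were lower without overlap (21.5% of all genes). Without DMHCA 2, 1 gene had such a p (1.48% of all genes), 17 were lower without overlap (23.6% of all genes) and 2 were higher (26.2% of all genes).

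**Figure D2:**
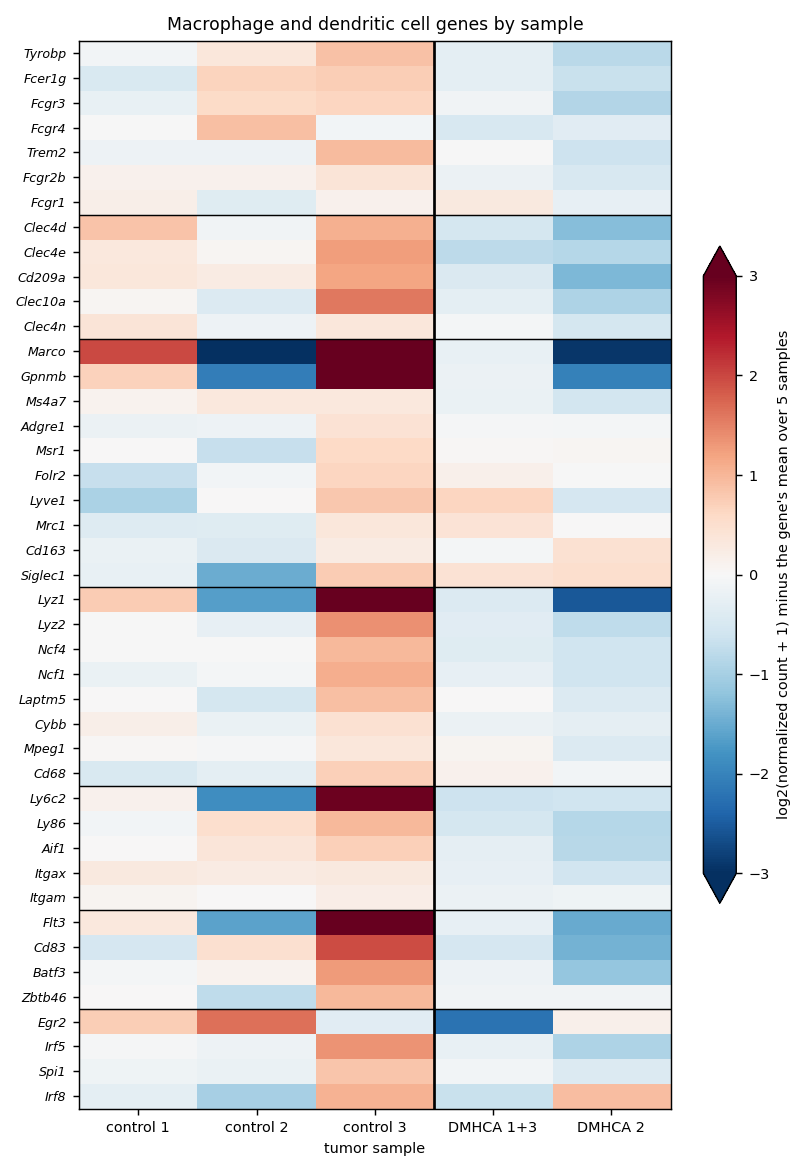
Heat map of the 43 genes (rows, grouped by role) in the 5 samples (columns). Color gives log2(normalized count + 1) minus the mean of the gene over the 5 samples, from -3 (blue) to 3 (red), and control 3 holds the highest count of 37 genes.

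Fc receptors and their signaling adaptors numbered 7, of which 6 lay below 0 (median log2FC -0.75) and 3 did not overlap between groups (12.2% of all genes were lower in this way). Tyrobp encodes DAP12, the membrane adaptor through which Trem2 signals. Controls 1, 2 and 3 had 2157, 2907 and 4214 normalized counts of Tyrobp, while DMHCA 1+3 and DMHCA 2 had 1866 and 1302. Every control was above both DMHCA samples (log2FC -0.96, SE 0.36, with SE the standard error, unadjusted p = 0.0351 and adjusted p = 0.644 by edgeR), and without control 3 the log2FC was -0.68. Fcgr2b, the inhibitory Fc receptor, had 1950, 1945 and 2297 in the controls and 1571 and 1268 in the DMHCA samples, in normalized counts. Its groups did not overlap in normalized counts (log2FC -0.54, SE 0.26), but did in TPM. For Fcgr4, an activating receptor, normalized counts were 341.8, 653.8 and 329.0 in the controls, with control 2 and not control 3 the highest, and 248.6 and 275.4 in the DMHCA samples. These did not overlap (log2FC -0.75, SE 0.48), and without control 2 the log2FC was -0.36.

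The other genes of this role overlapped between groups. Fcer1g, the common gamma chain of Fc receptors and lectins, had a log2FC of -0.87 (SE 0.43), the low-affinity receptor gene Fcgr3 one of -0.83 (SE 0.40) and the lipid receptor gene Trem2 one of -0.60 (SE 0.45). In all 3, control 1 was below DMHCA 1+3, and the log2FC of Trem2 was -0.13 without control 3 and that of Fcgr3 -0.46 without DMHCA 2. Fcgr1, the high-affinity receptor, was nearly level, at 860.1 ± 170.2 normalized counts in the controls (SD, n = 3) and 889.2 ± 231.0 in the DMHCA samples (SD, n = 2). Its log2FC of 0.05 (SE 0.35) was within the spread between samples and fell below 0 with upper-quartile scaling and without control 2.

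C-type lectins bind sugars and glycolipids of microbes and dying cells. All 5 lay below 0, with a median log2FC of -1.47, and 3 did not overlap (12.2% of all genes). Clec4d pairs with Clec4e, known as Mincle, at the cell surface. Clec4d had 215.7, 111.0 and 251.0 normalized counts in controls 1, 2 and 3 but 81.9 and 48.6 in DMHCA 1+3 and DMHCA 2. The lowest control was still above both DMHCA samples (log2FC -1.56, SE 0.60, unadjusted p = 0.0386 by edgeR), and its log2FC stayed between -1.83 and -1.19 when each library was omitted. Clec4e was less abundant, with 44.3, 37.0 and 86.6 normalized counts in the controls and 20.1 and 19.2 in the DMHCA samples, again without overlap (log2FC -1.50, SE 0.64). Cd209a, a relative of human DC-SIGN found on monocyte-derived dendritic cells, had 116.5, 108.2 and 207.8 normalized counts in the controls against 67.8 and 35.4. Its groups did not overlap either (log2FC -1.47, SE 0.61, unadjusted p = 0.0490 by edgeR).

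The other lectin genes were more abundant and overlapped. Clec10a, a galactose-binding lectin of macrophages and dendritic cells, had 1018, 729.7 and 2895 normalized counts in the controls and 787.9 and 506.2 in the DMHCA samples. Control 2 was below DMHCA 1+3, and the log2FC of -1.26 (SE 0.64) was -0.44 without control 3. Clec4n, or Dectin-2, beside Clec4d on chromosome 6, had a log2FC of -0.49 (SE 0.35). Whether these neighbors differ from each other was not tested.

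Surface genes of monocytes and other myeloid cells lay below 0 in 5 of 5 cases, 4 without overlap (12.2% of all genes were lower in this way) and 3 with an unadjusted p under 0.05 (4.08% of all genes). Ly86 encodes the secreted partner of Cd180, a relative of the Toll-like receptors. Its normalized counts were 821.3, 1238 and 1717 in controls 1, 2 and 3 and 612.6 and 482.9 in DMHCA 1+3 and DMHCA 2. Ly86 had the smallest unadjusted p of the 43 genes (0.0229 by edgeR, log2FC -1.20, SE 0.41), and its log2FC stayed between -1.44 and -0.91 when each library was omitted. Aif1, the actin-binding protein also called Iba1, had 921.4, 1181 and 1511 normalized counts in the controls and 762.8 and 515.3 in the DMHCA samples. Every control was above both DMHCA samples (log2FC -0.91, SE 0.37, unadjusted p = 0.0434 by edgeR).

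Itgax, the integrin chain CD11c of dendritic cells and some macrophages, was nearly constant in the controls, at 1554, 1498 and 1569 normalized counts. DMHCA 1+3 and DMHCA 2 had 1066 and 854.5, both below every control (log2FC -0.68, SE 0.27, unadjusted p = 0.0405 by edgeR). Its log2FC was -0.67 without control 3, nearly the same as with it. Itgam, the chain CD11b, had 984.9, 940.4 and 1076 normalized counts in the controls against 833.1 and 860.6, a small difference without overlap (log2FC -0.24, SE 0.28) in a gene whose reads are shared with Gm49368. Ly6c2, a marker of inflammatory monocytes, had 1323 normalized counts in control 3 but 185.8 and 46.5 in the other controls, on either side of the 111.5 and 113.4 of the DMHCA samples. Its log2FC of -2.20 (SE 1.32) was -0.05 without control 3. Ly6c2 is named after its values were seen.

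**Figure D3:**
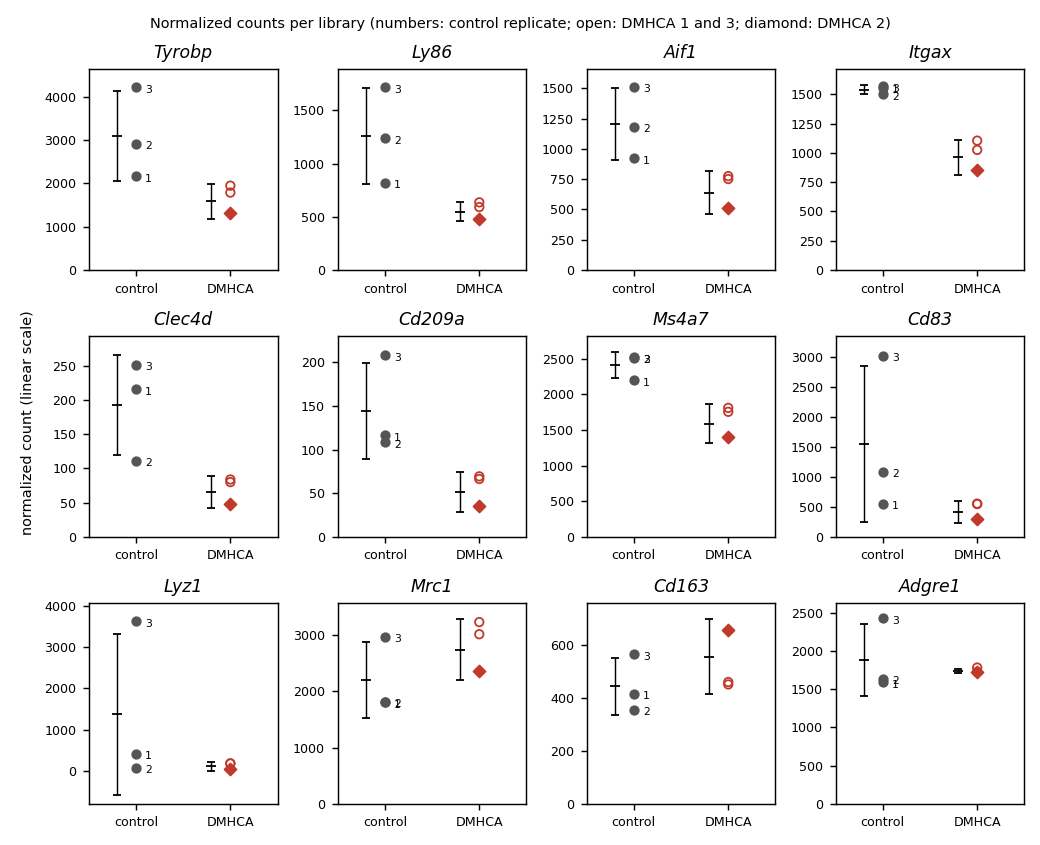
Normalized counts (linear axis) of 12 genes in each library, with the mean ± SD of 3 control and 2 DMHCA samples to the left of the points. Numbers give the control, open circles are DMHCA libraries 1 and 3 (1 sample) and diamonds DMHCA 2. Tyrobp, Ly86, Aif1, Itgax, Clec4d, Cd209a and Ms4a7 do not overlap between groups, while Cd83, Lyz1, Mrc1, Cd163 and Adgre1 do.

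Genes of lysosomes, lysozyme and microbial killing lay below 0 in 8 of 8 cases (median log2FC -0.63), 3 of them, Lyz2, Ncf1 and Ncf4, without overlap in normalized counts (12.2% of all genes), and of these only Ncf4 also in TPM. Lyz2, the lysozyme of macrophages, had 24209, 20719 and 63219 normalized counts in controls 1, 2 and 3 and 19510 and 14531 in DMHCA 1+3 and DMHCA 2. The groups did not overlap in normalized counts, with control 3 far above the others, but in TPM control 2 (352.2) was below both DMHCA samples (433.5 and 353.5), and the log2FC of -1.08 (SE 0.56) was -0.40 without control 3. Lyz1, the lysozyme best known from Paneth cells of the gut, had 422.7, 77.8 and 3623 normalized counts in the controls and 185.8 and 41.5 in the DMHCA samples. Control 2 was below DMHCA 1+3, so the groups overlapped (log2FC -3.58, SE 1.65, adjusted p = 0.644 by edgeR), and without control 3 the log2FC was -1.14.

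The share of Lyz1 among the reads of both lysozyme genes differed between libraries. It was 5.42% (95% Wilson interval 5.24 to 5.60) in control 3, 1.72% in control 1 and 0.374% (95% Wilson interval 0.302 to 0.464) in control 2. In the DMHCA libraries it was 0.930% (95% Wilson interval 0.807 to 1.07), 0.285% (95% Wilson interval 0.210 to 0.386) and 0.957% (95% Wilson interval 0.828 to 1.11) for libraries 1, 2 and 3. These intervals cover counting error only.

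The NADPH oxidase makes the oxidative burst of phagocytes. Ncf1, a cytosolic subunit, had 1117, 1229 and 2705 normalized counts in the controls and 1079 and 837.3 in the DMHCA samples. Ncf4, another cytosolic subunit, had 596.0, 601.6 and 1189 normalized counts in the controls against 472.0 and 401.9. Neither overlapped between groups in normalized counts, and their log2FC of -0.81 (SE 0.46) and -0.86 (SE 0.45) were -0.29 and -0.46 without control 3. The membrane subunit gene Cybb overlapped, with a log2FC of -0.38 (SE 0.28). The remaining genes of this role were Laptm5, a lysosomal membrane protein of leukocytes, at -0.44 (SE 0.45), Mpeg1 at -0.26 (SE 0.30) and the phagocyte marker Cd68 at -0.06 (SE 0.41). The log2FC of Cd68 was 0.39 without control 3.

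Scavenger receptors and surface genes of tissue macrophages were divided, with 5 of 10 below 0, 5 above and a median log2FC of -0.01. Whether they differ from the other roles was not tested. Ms4a7, a membrane protein of mature macrophages, was the 1 gene of these 10 whose groups did not overlap, a share near that of all genes (12.2%). It had 2196, 2509 and 2519 normalized counts in controls 1, 2 and 3 and 1781 and 1396 in DMHCA 1+3 and DMHCA 2 (log2FC -0.60, SE 0.25), and its log2FC stayed between -0.67 and -0.39 when each library was omitted.

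Mrc1, Cd163, Siglec1, Adgre1, Msr1, Folr2 and, among the lysosomal genes, Cd68 were the 7 genes (16.3%, against 18.1% of all genes) whose DMHCA samples were above the controls without overlap once control 3 was left out, a share near that of all genes. They are named after their values were seen, and with every library their adjusted p was 0.778 or higher by edgeR. The mannose receptor gene Mrc1 had 1806, 1817 and 2973 normalized counts in the controls and 3118 and 2357 in the DMHCA samples. The DMHCA samples were above controls 1 and 2 and on either side of control 3 (log2FC 0.32, SE 0.32). Cd163, the receptor for hemoglobin bound to haptoglobin, had 444.9 ± 108.1 normalized counts in the controls (SD, n = 3) and 556.0 ± 141.5 with DMHCA (SD, n = 2), an overlap (log2FC 0.32, SE 0.40). The sialic acid receptor gene Siglec1 had 559.4, 231.5 and 1116 normalized counts in the controls against 889.3 and 925.4 (log2FC 0.51, SE 0.62), and its log2FC was 1.19 without control 3 and 0.11 without control 2. Adgre1, which encodes a common surface antigen of mouse macrophages, had a log2FC of -0.12 (SE 0.29). The scavenger receptor gene Msr1 had one of -0.02 (SE 0.43) and the folate receptor gene Folr2 one of 0.01 (SE 0.46). Each was smaller in size than its SE.

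Lyve1 marks perivascular macrophages and also lymphatic endothelium, and had a log2FC of 0.06 (SE 0.63). The 5 lymphatic endothelial markers summed to 48.7, 25.2 and 258.2 TPM in the controls and to 21.9 and 93.2 TPM with DMHCA. Single genes carried these sums, Ccl21a with 245.4 TPM in control 3 and Reln with 85.6 TPM in DMHCA 2, and the other 3 markers summed to 5.4 to 10.8 TPM in the controls and to 10.6 and 6.9 TPM with DMHCA. Their part in the Lyve1 value was not tested. The scavenger receptor gene Marco and Gpnmb, a lysosomal glycoprotein, both named after their values were seen, had the log2FC farthest below 0 in this role. Marco had 178.1, 2.85 and 1214 normalized counts in the controls and 38.2 and 5.06 in the DMHCA samples, and Gpnmb had 853.0, 124.3 and 6476 against 470.0 and 128.6. For both, control 3 was the highest sample and control 2 the lowest, and their log2FC of -4.39 (SE 2.16) and -3.05 (SE 1.57) were -2.03 and -0.71 without control 3.

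**Figure D4:**
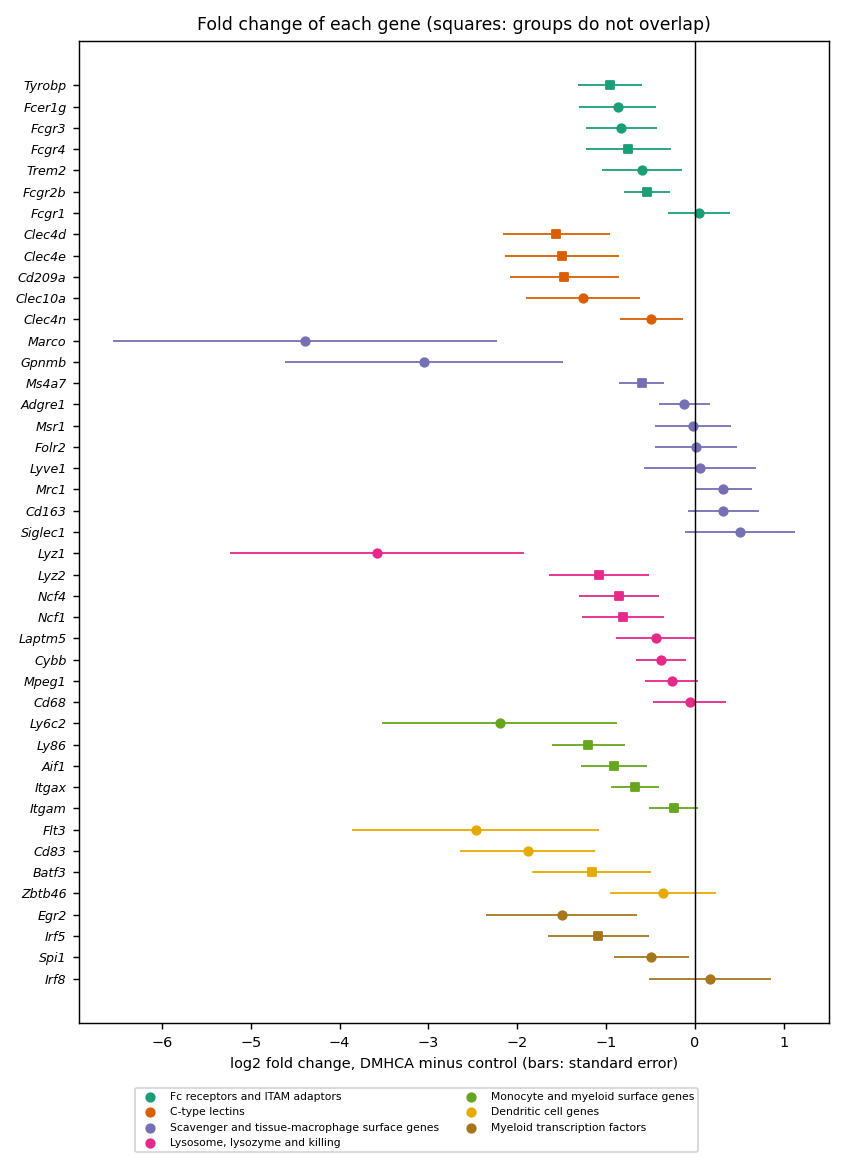
Log2 fold change (DMHCA over control) of each gene from edgeR, with its standard error as a bar, colored by role. Squares mark the 16 genes whose samples do not overlap between groups, all below 0, while Folr2, Lyve1, Mrc1, Cd163 and Siglec1 lie at or above 0.

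All 4 dendritic cell genes lay below 0, with a median log2FC of -1.52. Cd83, a surface protein of mature dendritic cells and activated B cells, had 548.8, 1087 and 3013 normalized counts in controls 1, 2 and 3 and 549.4 and 289.6 in DMHCA 1+3 and DMHCA 2. Control 1 and DMHCA 1+3 were almost equal, so the groups overlapped (log2FC -1.88, SE 0.76, unadjusted p = 0.0454 by edgeR). Without control 3, the library with the most B cell RNA, the log2FC of Cd83 was -0.96. Batf3, which cross-presenting dendritic cells need, had 95.3, 107.2 and 241.3 normalized counts in the controls and 88.4 and 43.5 in the DMHCA samples. They did not overlap in normalized counts (log2FC -1.16, SE 0.67), and the log2FC was -0.62 without control 3. Flt3, the growth factor receptor of dendritic cell precursors, and Zbtb46, a transcription factor of conventional dendritic cells, overlapped between groups, with a log2FC of -2.47 (SE 1.39) and -0.36 (SE 0.60). Without control 3 these were -0.40 and 0.21.

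Of the 4 myeloid transcription factors, 3 lay below 0. Spi1, which directs the myeloid lineage, had 990.3 ± 420.0 normalized counts in the controls (SD, n = 3) and 702.8 ± 113.3 with DMHCA (SD, n = 2), with overlap (log2FC -0.49, SE 0.42), and its log2FC was -0.09 without control 3. Irf5, a factor of inflammatory macrophages, had 677.8, 623.4 and 1754 normalized counts in the controls and 592.1 and 364.5 in the DMHCA samples. Its groups did not overlap in normalized counts, and the log2FC of -1.09 (SE 0.57) was -0.45 without control 3. Irf8, used by dendritic cells, monocytes and B cells, split both groups, with 1537, 939.4 and 3886 normalized counts in the controls, 1176 in DMHCA 1+3 and 3583 in DMHCA 2. Its log2FC of 0.17 (SE 0.69) was 0.94 without control 3 and -0.80 without DMHCA 2. Egr2, an early response factor found in alternatively activated macrophages, was lowest in control 3 among the controls (1041, 1966 and 491.3 normalized counts). DMHCA 1+3 had 133.6 and DMHCA 2 had 692.5, and the log2FC of -1.50 (SE 0.85) was -1.87 without control 3, -0.89 without control 2 and -3.09 without DMHCA 2. It was the gene with an unadjusted p under 0.05 in the fits without control 3 and without DMHCA 2.

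**Figure D5:**
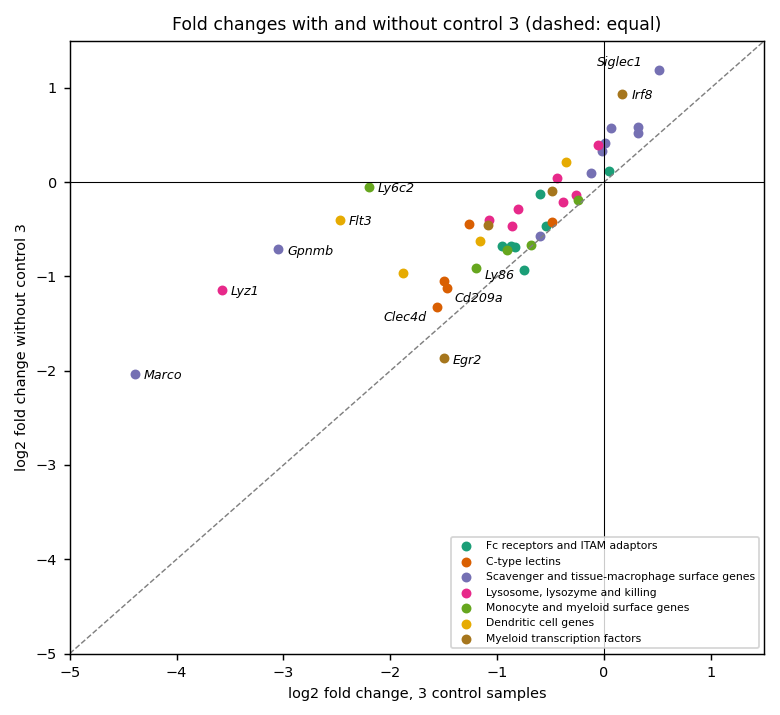
Log2 fold change of each gene with all 5 samples (x axis) and without control 3 (y axis), colored by role, with a dashed line where both are equal. Marco, Lyz1, Gpnmb, Flt3 and Ly6c2 lie far above the line (Ly6c2 moves from -2.20 to -0.05), and Clec4d, Cd209a and Ly86 lie closer to it.

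Among 26 macrophage genes outside the 43, 25 were tested and 20 lay below 0, with a median log2FC of -0.36. Groups did not overlap for 5 lower genes (12.2% of all genes) and 2 higher ones (13.8% of all genes). Unadjusted p under 0.05 was reached by Ctss, Cd14 and Lst1, lower with DMHCA (4.08% of all genes), and by Vsig4, higher with DMHCA (3.53% of all genes). Ctss, the protease cathepsin S that processes the invariant chain, had the highest mean TPM of the list (321.4 TPM). C1qa was above Ctss in control 2 (319.9 against 295.8 TPM) and in every DMHCA library. Ctss had 16853, 17998 and 23714 normalized counts in the controls and 12164 and 8069 in the DMHCA samples. Its groups did not overlap (log2FC -0.95, SE 0.34), nor did those of Cd14, the coreceptor for endotoxin (log2FC -1.88, SE 0.41), and Lst1, a leukocyte gene of the histocompatibility region (log2FC -1.14, SE 0.47). Vsig4, a complement receptor of resident macrophages, was scarce, with 33.7, 33.2 and 28.1 normalized counts in the controls and 84.4 and 67.8 in the DMHCA samples, all above the controls (log2FC 1.26, SE 0.50). All 4 had an adjusted p of 0.644 by edgeR. The defining macrophage genes Csf1r (log2FC -0.20, SE 0.28) and C1qa (log2FC -0.46, SE 0.30) had values below 0 with an unadjusted p above 0.05, and of these C1qa did not overlap between groups.

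Of 18 further genes used to mark dendritic cell types, 16 lay below 0, with a median log2FC of -1.0. Cd207, Ly6d, Cadm1 and Siglech (lower) and Cd24a (higher) had an unadjusted p under 0.05 (4.08% and 3.53% of all genes). Siglech, a lectin of plasmacytoid dendritic cells, had 118.4, 49.3 and 491.3 normalized counts in the controls and 37.7 and 18.2 in the DMHCA samples, without overlap (log2FC -2.96, SE 1.11). Cd207, the lectin of Langerhans cells, had 10.6, 42.7 and 77.9 normalized counts in the controls and 4.02 and 0 in the DMHCA samples, near the limit of detection. Ly6d (log2FC -4.18, SE 1.36), Cadm1 (log2FC -0.82, SE 0.29) and Cd24a (log2FC 0.83, SE 0.33) are made by epithelial cells too. The 7 epithelial markers summed to 2741.4 to 3992.5 TPM in the controls and to 4696.6 and 4799.8 TPM with DMHCA. They were divided, with 4 below 0, 3 above and a median log2FC of -0.09. The 3 above were the abundant Krt8, Krt18 and Erbb2 (log2FC 0.54, 0.40 and 0.74). The most abundant of the 18 genes was the adhesion gene Epcam, also an epithelial marker (1291 TPM, log2FC -0.12, SE 0.39). Neutrophils share some genes with macrophages. Their 10 markers summed to 58.7, 34.5 and 64.4 TPM in the controls, 13.0 TPM in DMHCA 1+3 and 217.9 TPM in DMHCA 2. S100a8 alone was 198.6 TPM of the sum in DMHCA 2. The other 9 markers summed to 33.5, 19.6 and 36.4 TPM in the controls and to 8.0 and 19.3 TPM with DMHCA. Of the 10 markers, 9 were tested, S100a8 among them but not Ly6g, and 8 lay below 0 (median log2FC -1.42). S100a8 lay above 0 (log2FC 1.94, SE 1.14). The part of neutrophils in the results was not tested.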

How the data were processed

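Tumor RNA of both groups of mice had been sequenced by 10X Genomics. Per the authors, reads were trimmed with cutadapt 2.9 and counted with RSEM 1.3.1 on a Bowtie2 2.4.1 index of mm10. For each library the authors deposited expected counts, TPM and FPKM of 55385 genes. The deposited expected counts are not normalized, the deposited TPM values are scaled by RSEM for gene length and to a fixed sum, and the deposited FPKM values were not used.

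Expected counts were rounded to whole numbers, and DMHCA libraries 1 and 3 were summed. The test between groups was that of edgeR 4.0.16 (R 4.3.3, TMM, filterByExpr with a minimum count of 10 and a total of 15, quasi-likelihood F-test), adjusting p by Benjamini-Hochberg over 19427 genes. A standard error (SE) was taken as the absolute log2FC over the root of its F statistic. Normalized counts were scaled by TMM to the samples' average effective library size, with the pooled sample at the size of a single library. Alternatives used DESeq2 1.42.0, limma 3.58.1 on log2(TPM + 1) or log2(TPM + 0.1), other scalings and filters, and omission of each library. The scripts were tested on simulated data.

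Genes given with all values are those with an unadjusted p under 0.05, without overlap, called by DESeq2 on the 5 samples (0 genes), most abundant in their role, or named by the study (Cd83, Lyz1 and, added later, Egr2), and the rest of the 43 are given more briefly, except where said. The genes and lists were chosen with earlier results of these data known. Coordinates are from GENCODE M21 (GRCm38), in which 99.6% of gene IDs were found.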

Additional observations from a re-analysis of the deposited data

How the results depend on the processing

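Over 17 alternatives, 33 of the 43 genes kept the sign of their log2 fold change. The 10 that turned had values from -0.44 to 0.17 in the fit of 5 samples. With upper-quartile scaling, which moved the median of all genes from -0.03 to -0.13, Fcgr1, Lyve1 and Folr2 were at -0.06, -0.06 and -0.11. Without a filter on low counts and with DESeq2 on 5 samples, where the median of all genes was -0.18 and -0.2, Msr1 was at 0.01. With a minimum count of 50, Fcgr1 was at 0.00 and Folr2 at -0.05. On log2(TPM + 1), where the median of all genes was 0.11, Adgre1, Cd68, Msr1 and Laptm5 were at 0.16, 0.16, 0.24 and 0.05. On log2(TPM + 0.1), with a median of 0.16, Adgre1, Cd68, Msr1, Zbtb46 and Laptm5 were at 0.17, 0.17, 0.29, 0.07 and 0.06. Irf8 was at -0.08 with DESeq2 and at -0.12 with edgeR on 6 libraries.

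An adjusted p under 0.05 was given to 1 gene by DESeq2 on 6 libraries and to 0 genes by the other 16 alternatives. The number of lower genes with an unadjusted p under 0.05 was 12 without a filter (5.1% of all genes), 12 with DESeq2 on 5 samples (4.35%), 19 with DESeq2 (6.21%) and 14 with edgeR (8.03%) on 6 libraries, against 7 (4.08%) in the fit of 5 samples, and 1 on either TPM scale (1.72% and 2.12%), where the median log2 fold change was -0.42 and -0.47. On 6 libraries, where DMHCA libraries 1 and 3 count as separate samples, the share of all genes was higher too. Why the settings differ was not tested.

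Same-numbered control and DMHCA libraries share only a number in their labels. The correlations of their deviations were -0.0342, 0.311 and 0.32 in the 3 pairs. Pairs with different numbers ran from -0.358 to 0.309, the latter for control 3 with DMHCA library 1. With the replicate block, edgeR on 6 libraries gave 14 lower genes an unadjusted p under 0.05 (8.08% of all genes) and called 0, and Cd68, Msr1 and Irf8 were at 0.05, 0.05 and -0.12. Without pairing, that fit also gave 14.

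With each library left out in turn, the number of lower genes with an unadjusted p under 0.05 ranged from 1 to 11, that of lower genes without overlap from 15 to 26, that of higher genes without overlap from 0 to 7 and the median from -0.91 to -0.42. The sign turned for Adgre1 (-0.24 to 0.10), Cd68 (-0.29 to 0.39), Fcgr1 (-0.11 to 0.33), Folr2 (-0.27 to 0.42), Irf8 (-0.80 to 0.94), Laptm5 (-0.72 to 0.04), Lyve1 (-0.29 to 0.57), Mpeg1 (-0.34 to 0.00), Msr1 (-0.29 to 0.33) and Zbtb46 (-0.69 to 0.21). Values that kept their sign but moved by over 1.5 times, beside those given with the genes above, were Fcgr2b, Clec4n and Batf3 (-0.35, -0.22 and -0.70 without DMHCA library 2), Cybb (-0.21 without control library 3), Cd163 (0.08 to 0.52) and Mrc1 (0.18 to 0.59). Without DMHCA library 2 a single DMHCA sample remains, and its spread is assumed to be that of the controls.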

Other observations

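Known LXR target genes were measured in the same tumors. Of 10 such genes, 8 lay above 0, 7 of them without overlap (13.8% of all genes), and 5 had an unadjusted p under 0.05 and a higher value with DMHCA (3.53% of all genes), namely Abca1, Srebf1, Scd1, Scd2 and Mylip. Abca1, the cholesterol exporter of macrophages and other cells, had 5142, 3368 and 6185 normalized counts in controls 1, 2 and 3 and 15008 and 10199 in DMHCA 1+3 and DMHCA 2 (log2FC 1.36, SE 0.35, adjusted p = 0.644 by edgeR). Nr1h3, the gene of LXR alpha, and Apoe, an apolipoprotein gene, lay below 0, both without overlap (12.2% of all genes). Of these, Nr1h3 had an unadjusted p under 0.05 (4.08% of all genes were lower with such a p). Nr1h3 had 362.0, 306.5 and 855.9 normalized counts in the controls and 197.9 and 171.1 in the DMHCA samples (log2FC -1.46, SE 0.59, unadjusted p = 0.044 and adjusted p = 0.644 by edgeR). Apoe, which had the highest mean TPM of the list, had 86579, 85057 and 116981 normalized counts against 77925 and 54993 (log2FC -0.53, SE 0.38).

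Fabp4, whose promoter drives the caspase in these mice, had 4906, 4304 and 24522 normalized counts in the controls and 2000 and 1777 in the DMHCA samples, without overlap (log2FC -2.57, SE 0.86). The part of fat cells and of macrophages in this RNA was not tested.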
